A study of Mus musculus with 24 samples.

Results

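Peritoneal mesothelium and bladder were compared on 6 of the 24 arrays of a mouse gene expression series, 3 arrays for each tissue. The RNA came from male C57BL/6 mice at 7 weeks of age and was amplified to cRNA before hybridization, and the labels name no treatment and no difference in genotype. The remaining 18 arrays held 3 arrays each of mesothelium (pleura and pericardium pooled), fat, heart, liver, lung and skeletal muscle. The mesothelium was dissected tissue pooled from many animals. The bladder was dissected as well, with no layer of the organ named, so both samples were read as mixtures of cell types. The labels number the 3 arrays of a tissue as replicates without stating whether they came from separate animals or pools. The p-values and standard errors use a spread shared over all 24 arrays, not over the 6 compared arrays alone. They reflect how far replicate arrays of the series vary and nothing wider, and that variation may be technical. Of 46120 probes, the comparison took the 12612 with a detection score above 0.99 on all 3 arrays of either tissue. This score gives the fraction of negative control probes that were dimmer than the probe.

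Mesothelium is the flat epithelial sheet that covers the body wall and the organs of the abdomen and chest. It arises from mesoderm, keeps keratins together with mesenchymal traits, and releases lubricants and hyaluronan onto its surface. The bladder is lined by urothelium, a layered epithelium sealed by tight junctions and by plaques of uroplakin proteins, over a thick coat of smooth muscle, and part of its outer face carries a serosa of mesothelium. The 2 tissues therefore offer a contrast between epithelia and may hold some tissue in common.

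Of the 12612 detected probes, 1418 (11.2%) were higher in peritoneal mesothelium and 1271 (10.1%) were higher in bladder. A probe was called when its B statistic, the log odds of a difference in the limma fit, was above 0 and the difference was at least 2-fold. A further 5115 probes (40.6%) were detected on all 6 arrays with a 95% confidence interval that stayed within 2-fold in either direction, and these are called shared below. The remaining 4808 probes were neither called nor shared. The median log2 difference, peritoneal minus bladder, was -0.05 over the detected probes and -0.002 over all probes.

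**Figure D1:**
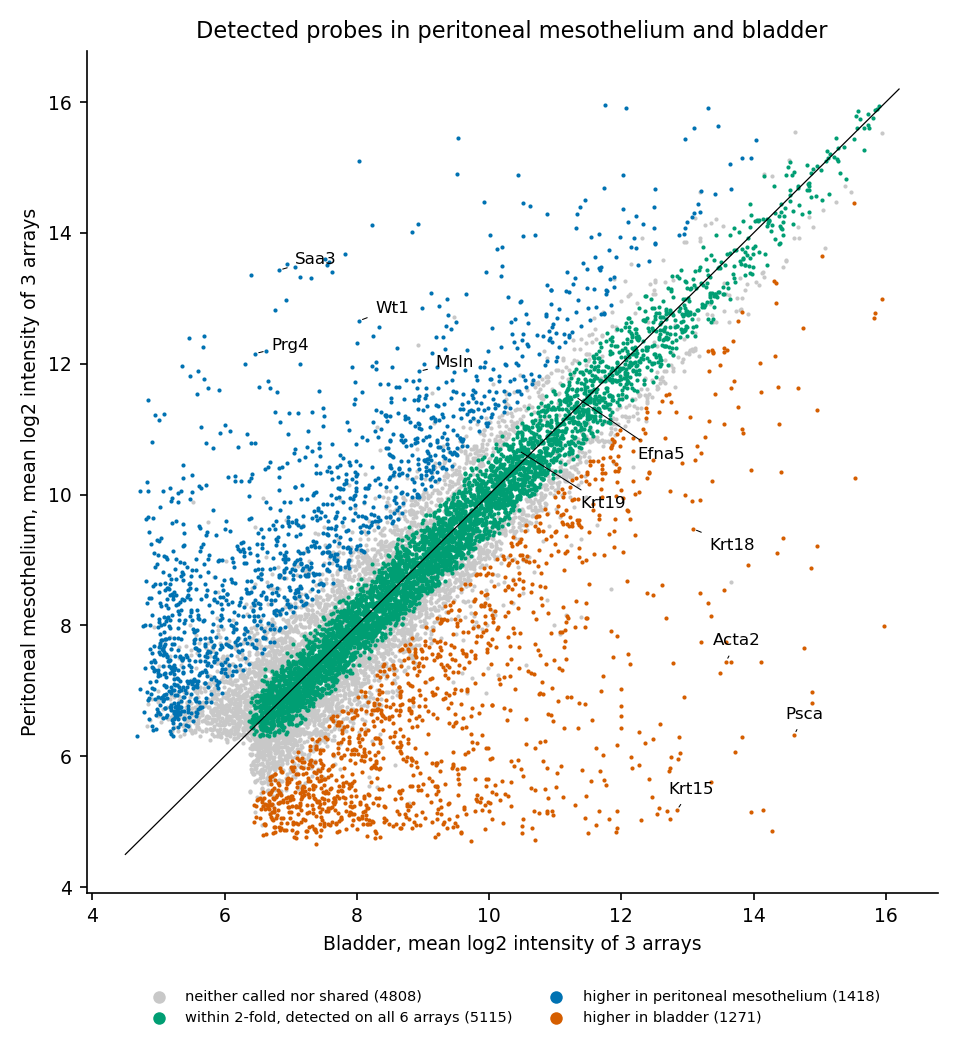
Mean log2 intensity of 3 arrays in peritoneal mesothelium (vertical axis) against bladder (horizontal axis) for each of the 12612 detected probes, with the line of equal level. The 1418 blue probes were higher in peritoneal mesothelium, the 1271 orange probes were higher in bladder, and the 5115 green probes were shared.

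The called differences were large in both directions. The median log2 difference was 1.95 among the probes higher in peritoneal mesothelium and -2.07 among those higher in bladder. In peritoneal mesothelium 272 probes were higher by 8-fold or more and 46 by 32-fold or more, while in bladder 335 and 94 probes passed the same limits. No bladder array detected 505 of the 1418 probes, and no peritoneal array detected 498 of the 1271. For such probes the fold is given as a lower bound under the main background model, set against the dimmest detected signal of each array. Under another background setting, described at the end, the fitted differences of some of them fell below these bounds. The medians and counts above use the fitted difference instead, which for these probes includes signal below the detection limit.

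The bladder arrays were closer to each other than the peritoneal arrays were. Pearson's r across the detected probes was 0.979 to 0.995 among bladder arrays, 0.945 to 0.969 among peritoneal arrays and 0.718 to 0.754 between the tissues. The 6 arrays each detected between 11864 and 13334 probes. Among the 1418 probes higher in peritoneal mesothelium, 69 spread over more than 2 log2 units across the peritoneal arrays, and array 3 was the lowest for 60 of them. None of the 1271 probes higher in bladder spread as far across the bladder arrays. The 69 probes include 22 of the intestine and pancreas genes and 9 of the liver and plasma genes described below (1 probe is in both groups), 14 with other names and 25 without a name.

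A gene name could be given to 4235 of the detected probes, covering 3858 genes. For 3932 of them the name came from a gene ID inside the probe identifier, for 281 from the supplementary tables of the study and for 22 from a gene name in the identifier. The study's tables list genes that it had found to be higher in mesothelium than in each other tissue of these same arrays, bladder included. All 272 table-named probes that were called were accordingly higher in peritoneal mesothelium, their direction is no independent evidence, and their values are given below without a test. Among probes named by gene ID, 8.44% were higher in peritoneal mesothelium, 9.13% were higher in bladder and 45.1% were shared. The other 8377 detected probes, 1725 of them called, have no name here. A probe detected in 1 tissue only entered the set through the tissue where it was bright, so the counts of detected list members below describe them and are not evidence of a direction.

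Some genes of the mesothelial lineage were detected in bladder as well as in peritoneal mesothelium. Of 33 probes for 27 mesothelial genes, 29 were detected, 26 of these were higher in peritoneal mesothelium, 2 were higher in bladder and 1 was shared. The study's tables had named 25 of the 33, and the median log2 difference over all 33 was 2.86. Among the 4 detected probes named otherwise, 1 was higher in peritoneal mesothelium and 2 were higher in bladder, and the median without table-named probes was -0.01. All 3 bladder arrays detected 16 of the 29 probes, and none of the 3 detected 8. The 16 include the keratins Krt8, Krt18 and Krt19, which urothelium also carries. Among all 12612 detected probes, 9594 were detected on all 6 arrays and a further 1574 on all 3 bladder arrays only, a larger share than in this list. In these bulk tissues, fewer mesothelial cells and less RNA per cell cannot be told apart.

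Wt1, the zinc finger transcription factor that marks mesothelium from the embryo on, had log2 levels of 12.73, 12.70 and 12.53 on the peritoneal arrays and 7.91, 8.06 and 8.11 on the bladder arrays. Every array of both tissues detected it, and the groups lay 4.63 ± 0.33 log2 units apart (difference ± SE of the fit, as throughout), a 24.7-fold difference. Prg4, the lubricant proteoglycan of joints and serosal surfaces, measured 12.08, 12.21 and 12.18 against 6.39, 6.59 and 6.38. It differed by 5.70 ± 0.27 log2 units or 51.9-fold, and was just above the detection limit in bladder.

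The genes that the study carried forward to in situ hybridization all lay on the peritoneal side. Msln, the surface glycoprotein mesothelin, measured 11.97, 11.86 and 11.82 in peritoneal mesothelium and 8.96, 9.08 and 8.78 in bladder, 7.70-fold apart. Muc16, the mucin that binds mesothelin, was 2.77 ± 0.30 log2 units higher in peritoneal mesothelium, and like Msln was detected on all 6 arrays. Lrrn4, a membrane protein with leucine-rich repeats, measured 10.85, 10.48 and 10.86 against 5.66, 6.24 and 6.69. Only 1 of 3 bladder arrays detected Lrrn4, the fewest among the candidates with a single probe, and the difference was 4.53 ± 0.44.

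The candidates Igfbp6, Fam180a, Nkain4, Ptgis, Mmp23 and Selp differed by less than Lrrn4. Igfbp6, a binding protein for insulin-like growth factors, was 3.27 ± 0.25 log2 units higher in peritoneal mesothelium from a bladder mean of 10.69. Fam180a differed by 3.28 ± 0.34 and Nkain4, a partner of the sodium pump, by 2.86 ± 0.27. Ptgis, the prostacyclin synthase, and the metalloprotease gene Mmp23 differed by 1.77 ± 0.21 and 1.68 ± 0.21, the smallest gaps of the set, with bladder means of 11.67 and 10.59. Selp, the adhesion molecule P-selectin, was uneven in peritoneal mesothelium at 9.44, 11.31 and 10.81 and steady in bladder at 8.08, 7.89 and 8.01. Its lowest peritoneal array still lay above the highest bladder array, and with only the 6 arrays fitted Selp was no longer called.

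Upk3b is a uroplakin that the study detected in human urothelial cells as well as in mesothelial cells. It is a relative of the proteins that build the plaques of the urothelial surface. Its 3 probes pointed the same way. The brightest measured 14.31, 14.18 and 14.61 in peritoneal mesothelium and 12.02, 11.92 and 12.14 in bladder, a difference of 2.34 ± 0.37 log2 units or 5.06-fold. The second measured 9.29, 9.42 and 11.26 against 7.52, 7.26 and 7.25, with 1 peritoneal array well above the other two and a difference of 2.65 ± 0.46, which was not called with only the 6 arrays fitted. The remaining probe measured 8.28, 8.64 and 8.68 in peritoneal mesothelium, was detected on no bladder array and differed at least 4.63-fold.

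Bladder had a higher mean Upk3b signal than each of the other solid organs, clearly so against fat, liver and skeletal muscle. On the brightest probe the bladder mean of 12.03 stood beside 10.40 in lung, 10.28 in heart, 5.65 in fat, 5.35 in skeletal muscle and 5.31 in liver, with 13.12 in pleural and pericardial mesothelium. The excess of bladder over lung and heart on the Upk3b probe, 1.62 and 1.74 log2 units (adjusted p = 0.00401 and 0.00162 in the limma fit), did not reach a B statistic above 0. Wt1 was placed differently, since its bladder mean of 8.03 lay between 8.68 in heart and 6.64 in lung. Msln resembled Wt1 in this respect, with 8.94 in bladder, 9.12 in lung and 7.94 in heart. The other uroplakins (Upk1a, Upk1b, Upk2 and Upk3a) have no named probe here. Which cells of the bladder gave the Upk3b signal was not tested.

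Keratins of simple epithelia, which both mesothelium and urothelium carry, divided within the list. Krt18 measured 9.76, 9.33 and 9.35 in peritoneal mesothelium and 12.90, 13.10 and 13.24 in bladder, 12.1-fold higher in bladder (adjusted p = 1.82e-09). Its partner Krt8 was 4.60-fold higher in bladder (adjusted p = 9.15e-06), from peritoneal levels of 11.69, 10.93 and 10.75. Krt19 was shared, with 10.79, 10.61 and 10.65 against 10.36, 10.39 and 10.55, and its interval of -0.38 to 0.87 log2 units excluded a 2-fold difference. These 3 probes were detected on all 6 arrays, and a further Krt8 probe on none. Calb2 (calretinin) and Gata4, which the mesothelial list also holds, were not detected in either tissue.

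**Figure D2:**
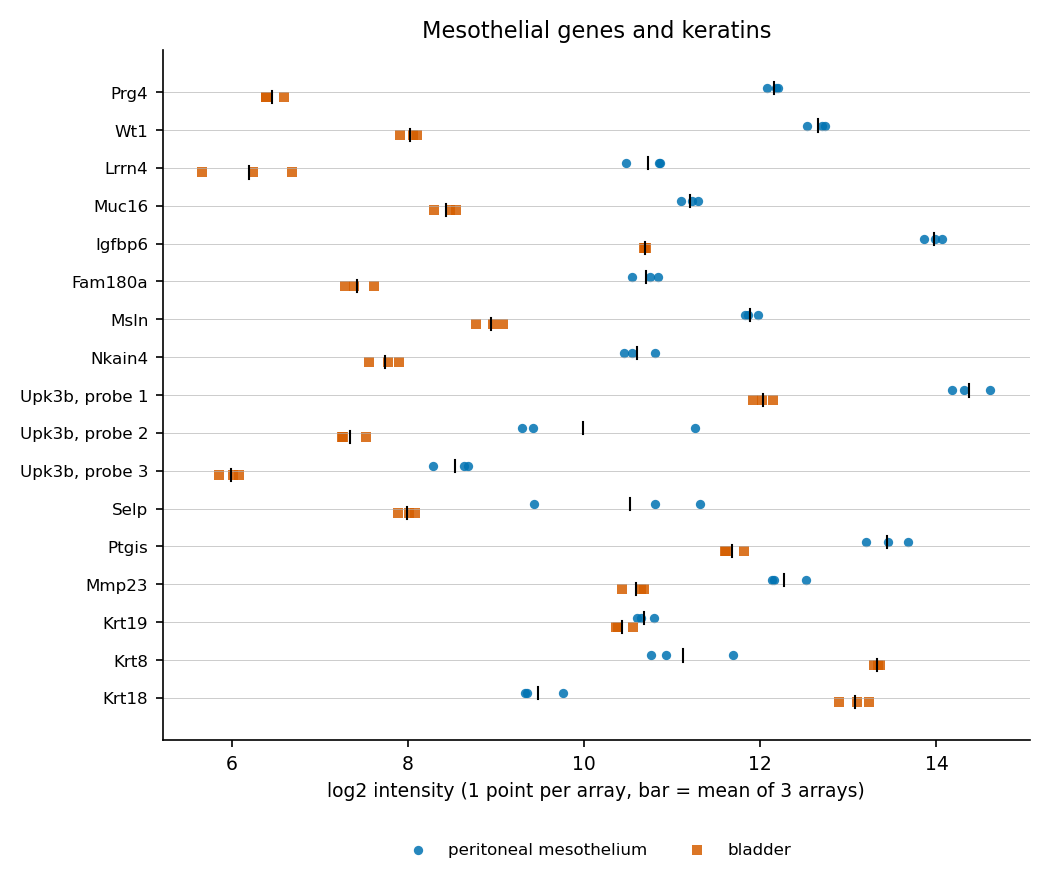
Log2 intensity on each array (1 point per array, bar at the mean of 3) for mesothelial genes and keratins in peritoneal mesothelium (blue circles) and bladder (orange squares). The 2 tissues do not overlap for Prg4 down to Mmp23, where peritoneal mesothelium is higher, nor for Krt8 and Krt18, where bladder is higher. The Krt19 arrays do not overlap either, but the means of Krt19 lie only 0.25 log2 units apart.

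The urothelial genes stood on the bladder side. Of 23 probes for 18 urothelial genes, 12 were detected, 10 of these were higher in bladder, none was higher in peritoneal mesothelium and 1 was shared. No probe of this list took its name from the study's tables, and the median log2 difference was -0.32 over all 23, of which 11 were detected in neither tissue. The mean level of the list lay between 8.15 and 8.18 on the bladder arrays and between 5.94 and 6.09 on the peritoneal arrays.

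Psca, a lipid-anchored surface protein of the urothelium, was bright in bladder and close to the detection limit in peritoneal mesothelium. It measured 14.73, 14.55 and 14.55 in bladder and 5.84, 6.71 and 6.41 in peritoneal mesothelium, where 2 of 3 arrays detected it, and was 313.5-fold higher in bladder (adjusted p = 1.12e-14). Krt15, a keratin of basal cells, measured 12.64, 12.76 and 13.11 in bladder and was detected on no peritoneal array, which put it at least 100.2-fold higher (adjusted p = 4.17e-10). Gata3, a transcription factor of urothelial identity, measured 12.03, 12.34 and 12.45 against 6.06, 5.31 and 6.22, with detection on 1 of 3 peritoneal arrays. Its difference was -6.41 ± 0.41 log2 units.

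Junction and barrier genes of the bladder lining followed. Cldn4, a tight junction claudin, measured 12.62, 12.78 and 12.35 in bladder and 7.20, 5.73 and 6.56 in peritoneal mesothelium, a difference of -6.09 ± 0.35, with 2 of 3 peritoneal arrays detected. Fxyd3, a regulator of the sodium pump, differed by -4.97 ± 0.31 and Klf5, an epithelial transcription factor, by -3.17 ± 0.48. Both of these genes were detected on all 6 arrays. Elf3, also a regulator of epithelial genes, exceeded its peritoneal level at least 6.68-fold. Jup (plakoglobin), a plaque protein of desmosomes and adherens junctions, was shared, with a difference of -0.19 ± 0.26. Rab27b, a vesicle GTPase, differed by -1.19 ± 0.39 and was not called (adjusted p = 0.0497).

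Several genes with wide differences on the bladder side lay outside the urothelial and muscle lists. Sprr2a1, a small proline-rich protein of epithelial surfaces with close paralogs that a probe may not separate, measured 14.76, 14.83 and 14.71 in bladder but 9.19, 8.01 and 5.77 in peritoneal mesothelium. The difference was -7.11 ± 0.51, and the peritoneal arrays spread far more than the bladder arrays. Ctse, the aspartic protease cathepsin E, was at least 38.4-fold higher in bladder and Ank1, the membrane skeleton protein ankyrin 1, at least 46.5-fold. Pcp4l1 was at least 93.3-fold higher. Sh3gl2 (endophilin A1), a protein of endocytosis, was detected on all 6 arrays and differed by -5.84 ± 0.28.

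Rbfox3 was also higher in bladder. This gene encodes NeuN, an RNA splicing factor known as a marker of mature neurons. It measured 12.43, 12.14 and 12.31 in bladder, was detected on no peritoneal array and was at least 68.8-fold higher in bladder (adjusted p = 5.84e-17). Of 13 probes for 12 other nerve and ganglion genes, 1 was detected. That probe, for the neuronal tubulin Tubb3, measured 6.50, 6.50 and 6.45 in bladder and 6.23, 6.50 and 6.38 in peritoneal mesothelium, and the mean of the list lay at 5.25 to 5.40 on the bladder arrays and 5.14 to 5.33 on the peritoneal arrays. Neurofilament, Gap43, Snap25 and S100b probes were detected in neither tissue.

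Smooth muscle genes were the other block of the bladder side. Of 23 probes for 19 smooth muscle genes, 18 were detected, 14 of these (13 genes) were higher in bladder and 1 was higher in peritoneal mesothelium. The median log2 difference was -1.92 over all 23 probes, and none took its name from the study's tables. Acta2, the smooth muscle actin, measured 13.53, 13.45 and 13.76 in bladder and 7.33, 7.71 and 7.29 in peritoneal mesothelium, 70.4-fold apart (adjusted p = 8.02e-13). Mylk, the kinase that switches on myosin, measured 15.11, 14.92 and 14.84 in bladder against 9.96, 8.32 and 9.36, 53.6-fold apart (adjusted p = 6.17e-11). Synm, an intermediate filament protein of muscle, differed by -5.37 ± 0.51.

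The excitation and contraction genes of the muscle coat were mostly undetected in peritoneal mesothelium. Cnn1 (calponin) was at least 9.25-fold higher in bladder, the calcium channel gene Cacna1c at least 3.89-fold and Chrm2, the muscarinic acetylcholine receptor, at least 3.29-fold. The potassium channel genes Kcnma1 and Kcnmb1 were at least 2.90-fold and 3.30-fold higher, the former by the stronger of its 2 detected probes. Myl6, a myosin light chain of muscle and other cells, was bright in both tissues, with 14.16, 14.33 and 14.45 against 13.49, 13.06 and 13.24. Its difference of -1.05 ± 0.19 was not called without bladder replicate 3, peritoneal replicate 2 or peritoneal replicate 3.

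Not all members followed. Gucy1a1, a subunit of the nitric oxide receptor, was higher in peritoneal mesothelium by 1.76 ± 0.23 on one probe (adjusted p = 7.37e-06), and its second probe, at 1.19 ± 0.28 with no bladder array detected, was not called. Pdlim7 differed by -2.99 ± 0.67 and was not called (adjusted p = 0.00324). Cald1 (caldesmon) was higher in bladder by 1.89 log2 units, a call that was lost without bladder replicate 3, whose level of 9.03 stood above 7.39 and 7.71, and also without peritoneal replicate 1.

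**Figure D3:**
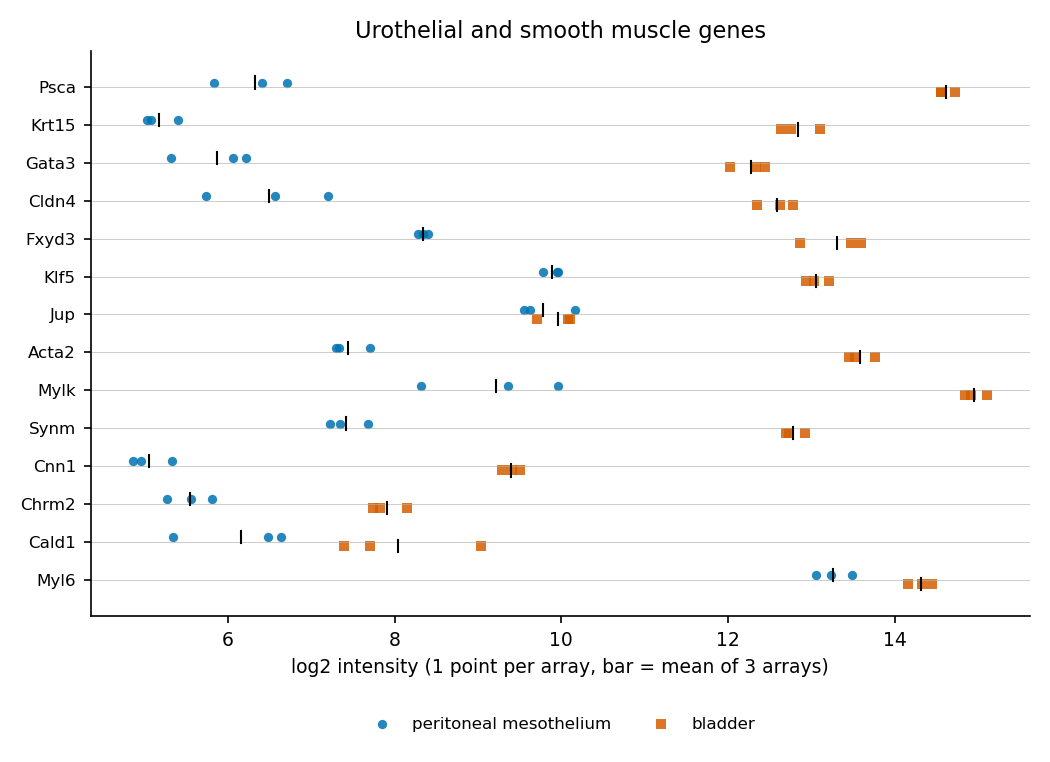
Log2 intensity on each array (1 point per array, bar at the mean of 3) for urothelial genes (Psca to Jup) and smooth muscle genes (Acta2 to Myl6) in peritoneal mesothelium (blue circles) and bladder (orange squares). Bladder is higher without overlap for each gene but Jup, where the arrays of the 2 tissues overlap.

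Junction and epithelial genes were called in both directions. Of 40 probes for 29 genes, 25 were detected, 8 of these were higher in peritoneal mesothelium, 8 were higher in bladder and 4 were shared, with a median log2 difference of -0.08 over all 40. The tables had named 7 of the 8 on the peritoneal side. Among the 18 detected probes named otherwise, 1 was higher in peritoneal mesothelium and 8 were higher in bladder, beside 8.44% and 9.13% of all detected probes named by gene ID. The median over the list without table-named probes was -0.26. The tight junction claudins parted company, since Cldn4 lay on the bladder side while Cldn10 and Cldn15 lay on the peritoneal side. Cldn10 measured 11.70, 11.79 and 11.77 in peritoneal mesothelium and 8.87, 9.03 and 8.94 in bladder, 7.00-fold apart (adjusted p = 7.59e-09). The 2 Cldn15 probes were higher by 3.90 ± 0.32 and 2.86 ± 0.25.

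Other adhesion genes also took sides. Cgnl1 (paracingulin), an adaptor of cell junctions, was 3.63 ± 0.29 log2 units higher in peritoneal mesothelium, and its relative Cgn (cingulin) was shared, at 0.51 ± 0.20. Crb2, a polarity protein of the apical membrane, was 2.77 ± 0.35 higher in peritoneal mesothelium and Cdh3 (P-cadherin) at least 2.80-fold higher. On the bladder side stood the desmosomal cadherin Dsg2, at -2.94 ± 0.30, the tight junction protein Marveld3, at -1.70 ± 0.17, and the connexin gene Gjb2, at least 2.12-fold higher in bladder. Gjb2 was not called with only the 6 arrays fitted. F11r, an adhesion molecule of tight junctions, was shared, at -0.34 ± 0.22.

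Matrix genes were higher in peritoneal mesothelium more often than in bladder. Of 46 probes for 35 extracellular matrix genes, 37 were detected, 25 of these (21 genes) were higher in peritoneal mesothelium, 3 were higher in bladder and 4 were shared. The study's tables had named 22 of the 46, and among the 17 detected probes named otherwise 5 were higher in peritoneal mesothelium and 3 were higher in bladder. For all detected probes named by gene ID these shares were 8.44% and 9.13%. The median log2 difference over the 46 was 1.19, while the probes not named by the tables had a median of 0.39.

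The genes higher in peritoneal mesothelium included some of basement membranes and elastic fibres, all named by the tables. Nid2, a basement membrane nidogen, measured 11.87, 11.98 and 11.31 in peritoneal mesothelium and 7.76, 7.81 and 8.35 in bladder, 13.5-fold apart. Fbln2, a fibulin of elastic fibres and basement membranes, measured 12.43, 12.59 and 13.23 against 9.64, 9.38 and 9.12, 10.3-fold apart. Emilin2 exceeded its bladder level at least 7.45-fold. The laminin subunit gene Lamc3 did so at least 4.94-fold on one probe and 3.76-fold on another, which the tables list under an older name, while its remaining probe was detected in neither tissue.

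Fibrillar collagen genes were closer. Col1a1 measured 12.20, 12.16 and 12.69 in peritoneal mesothelium and 11.86, 11.96 and 11.77 in bladder and was shared, at 0.48 ± 0.24. Col6a3 was shared as well, at 0.47 ± 0.19, while its partners Col6a1 and Col6a2 were higher in peritoneal mesothelium by 1.37 to 2.35 log2 units. The Col6a1 difference of 1.37 was not called with only the 6 arrays fitted. Col3a1 was higher by 2.07 ± 0.39 (adjusted p = 0.000668), a call that was lost without bladder replicate 1 or 2 or peritoneal replicate 1 or 2. Col5a1 was higher by 1.21 ± 0.18 (adjusted p = 5.49e-05). Dcn (decorin) was detected on all 6 arrays, and its 3 probes disagreed on the call, with differences of 0.93 ± 0.12, 1.33 ± 0.21 and 1.60 ± 0.54, of which only that of 1.33 was called.

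Thrombospondin and network collagen genes lay on the bladder side. Thbs2 measured 10.56, 10.48 and 10.32 in bladder and 7.61, 7.43 and 7.01 in peritoneal mesothelium (adjusted p = 3.03e-09). Col8a1 was higher in bladder by 3.38 log2 units, with 1 of 3 peritoneal arrays detected, and Thbs1 was at least 1.38-fold higher. The call for Thbs1 was lost with only the 6 arrays fitted. Of the fibroblast genes, 8 of 10 detected probes were higher in peritoneal mesothelium, but the tables had named 7 of those 10. Among the 3 detected probes named otherwise, 1 was higher in peritoneal mesothelium and none was higher in bladder. The median log2 difference over the list without table-named probes was -0.70. The 2 probes not called were for the transcription factor Prrx1 and had higher bladder levels (differences of -1.36 ± 0.29 and -1.22 ± 0.27). Prrx2 had at least 1.27 times its bladder level.

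Growth factor and receptor genes were called in both directions. Of 54 probes for 50 signalling genes, 34 were detected, 20 of these (19 genes) were higher in peritoneal mesothelium, 3 were higher in bladder and 3 were shared. The tables had named 16 of the 54, and of the 18 detected probes named otherwise 4 were higher in peritoneal mesothelium and 3 in bladder. The shares over all detected probes named by gene ID were 8.44% and 9.13%, and so few probes do not set this list apart. The median log2 difference was 0.55 over all 54 probes, and with the table-named probes left out it was 0.0.

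Igf1, the insulin-like growth factor ligand, measured 10.81, 10.55 and 10.72 in peritoneal mesothelium and 7.28, 7.06 and 6.87 in bladder, 12.3-fold apart (adjusted p = 7.1e-09). The binding protein genes Igfbp4 and Igfbp6 were higher by 3.02 ± 0.13 and 3.27 ± 0.25, and the 2 Igfbp5 probes were higher by 2.04 ± 0.18 and 2.40 ± 0.35. Fgf1, a fibroblast growth factor, measured 11.58, 12.89 and 13.21 against 8.31, 8.26 and 8.45, 18.7-fold apart. Fgf18 was at least 2.33-fold higher and Fgf5 at least 1.04-fold.

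Other list members higher in peritoneal mesothelium act in Wnt, retinoic acid or hedgehog signalling, and of these only Aldh1a1 was not named by the tables. Wnt2b, a Wnt ligand, measured 10.02, 10.55 and 10.92 in peritoneal mesothelium and 6.70, 6.75 and 6.59 in bladder, and Rspo1, a secreted enhancer of Wnt signals, was at least 6.17-fold higher. Aldh1a2, which makes retinoic acid in embryonic and adult mesothelium, was at least 6.76-fold higher, its relative Aldh1a1 was higher by 2.55 ± 0.34 (adjusted p = 1.3e-05), and Stra6, the receptor for retinol binding protein, was at least 2.81-fold higher. Disp1, which releases hedgehog ligands from cells, was higher by 3.06 ± 0.32.

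A few genes that act in epithelia or oppose Wnt signals lay on the bladder side. Erbb2, a receptor kinase of the epidermal growth factor family, differed by -1.58 ± 0.22 (adjusted p = 2.53e-05). Fgfr3, a fibroblast growth factor receptor of the urothelium, and Sfrp1, a secreted Wnt antagonist, differed by -1.61 ± 0.30 and -1.63 ± 0.28, each detected on 2 of 3 peritoneal arrays. The call for Fgfr3 was lost without bladder replicate 1 or 2 or peritoneal replicate 2, and that for Sfrp1 with only the 6 arrays fitted. Pdgfa, Gli2 and Fzd2, a ligand, a hedgehog transcription factor and a Wnt receptor, were shared.

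Some transcription factors that set position along the body differed between the tissues. Of 35 probes for 33 such genes, 18 were detected, 7 of these (6 genes) were higher in peritoneal mesothelium, 3 were higher in bladder and 1 was shared, with a median of -0.05 over all 35. The tables had named 5 of the 7, and among the 13 detected probes named otherwise 2 were higher in peritoneal mesothelium and 3 in bladder. Over all detected probes named by gene ID the shares were 8.44% and 9.13%. Counts from so few probes show no difference particular to this list. In all, 8 of the 18 detected probes were not called. Nkx2-3, a homeobox factor of the gut wall and spleen, measured 9.73, 10.25 and 10.20 in peritoneal mesothelium and was detected on no bladder array, at least 13.4-fold higher. Its level in pleural and pericardial mesothelium, 4.78, was as low as in bladder, at 4.84. Isl1, a LIM homeobox factor, measured 11.12, 11.39 and 11.48 against 7.54, 7.61 and 7.32, 14.3-fold apart, and Hlx, a homeobox factor of gut and liver mesenchyme, was at least 4.37-fold higher (adjusted p = 7.46e-08).

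The 3 factors higher in bladder were Pitx1, Hoxa9 and Hoxb13. Pitx1, a factor of hindlimb and pelvic development, measured 6.88, 6.72 and 6.61 in bladder and was detected on no peritoneal array, at least 1.46-fold higher (adjusted p = 3.03e-11). Hoxa9 was at least 2.34-fold higher (adjusted p = 0.000398) and Hoxb13, the last gene of its cluster, at least 1.48-fold (adjusted p = 0.000669). The call for Hoxb13 was lost without bladder replicate 1 or peritoneal replicate 3. Hoxd4, a gene from the front of its cluster, was shared, and Hoxa7 and Hoxd8 differed by 0.55 ± 0.25 and -0.57 ± 0.26 and were not called.

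Genes of neighbouring organs were among those with wide differences on the peritoneal side. The 12 named genes with the widest fitted difference in that direction were 4 alpha-defensin genes (Defa6, Defa20, Defa3 and AY761185), 4 genes of liver and plasma (Mup1, Mup3, Orm1 and Apoa2), the haemoglobin gene Hba-a1, the adipocyte gene Car3, the acute phase gene Saa3 and Prg4. Where no bladder array detected the probe, as for the 4 defensin genes, Mup3, Orm1 and Apoa2, only a lower bound was measured, so the order among the 12 was not determined. Saa3 measured 13.88, 13.38 and 13.02 in peritoneal mesothelium and 6.97, 6.84 and 6.65 in bladder, 97.7-fold apart. Alpha-defensins, major urinary proteins and alpha-globins are families of near-identical genes, so their signals may be shared between members.

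Intestinal genes were uneven across the peritoneal arrays. Of 44 probes for 31 intestine and pancreas genes, 27 were detected and all 27 were higher in peritoneal mesothelium, 22 of them named by the study's tables. Their mean level over all 44 probes was 9.10, 8.60 and 7.13 on peritoneal arrays 1, 2 and 3 and 5.22 to 5.25 on the bladder arrays, and array 3 was the lowest for 25 of the 27. The brightest Defa6 probe, for a defensin of Paneth cells in the intestinal crypt, measured 13.34, 13.27 and 10.69 and was detected on no bladder array, with a fold of at least 69.0 over bladder. The highest mean of the 14 detected probes named Defa was 5.74 in the other mesothelium, that of pleura and pericardium.

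Goblet and enterocyte genes showed the same steps. Zg16, a goblet cell lectin, measured 12.04, 10.11 and 8.26 in peritoneal mesothelium, and Reg3b, an antibacterial lectin of enterocytes, measured 12.07, 7.82 and 6.69. Spink3, a trypsin inhibitor of pancreas and accessory glands, measured 11.54, 9.15 and 6.64. Each was detected on all 3 peritoneal arrays and no bladder array, and none of the 3 was called with only the 6 arrays fitted. The call for Reg3b was also lost without bladder replicate 1, 2 or 3. The pancreatic enzyme genes Cela2a, Cela3b, Prss1 and Cel were detected on no array of either tissue, and the cofactor gene Clps on 1 peritoneal array. The part of intestinal RNA in the differences of other genes was not tested.

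Liver and plasma genes, grouped after their values were seen, had a similar spread. All 11 probes of this group were higher in peritoneal mesothelium. Mup1, a major urinary protein, measured 14.39, 14.21 and 11.45 against 6.61, 6.18 and 6.42, Apoa2, an apolipoprotein, measured 11.76, 13.83 and 9.32, and Serpina1b, an antitrypsin, measured 10.99, 11.74 and 7.44. Neither Apoa2 nor Serpina1b was detected in bladder, and both were not called with only the 6 arrays fitted. Hba-a1, a globin of red cells, was steadier at 13.89, 13.10 and 13.61, against 6.92, 7.84 and 6.08 in bladder. Svs5, a seminal vesicle secretory protein, measured 10.003, 12.40 and 10.52 in peritoneal mesothelium and 6.01, 6.54 and 5.69 in bladder, with 1 bladder array detected, and it was named by the tables. Of the 5 accessory gland genes with a probe, Svs5 and Spink3 were higher in peritoneal mesothelium, Hoxb13 was higher in bladder, and Tgm4 and Defb50 were not detected.

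Adipocyte and macrophage genes were higher in peritoneal mesothelium. Of 9 adipocyte probes, 7 were detected and 6 were higher in peritoneal mesothelium, with none named by the tables and a median log2 difference of 3.27 over the 9. Lpl, the lipoprotein lipase, measured 14.93, 14.10 and 14.39 against 9.79, 10.03 and 9.97, 23.4-fold apart (adjusted p = 1.07e-13), and the 2 probes of Car3, carbonic anhydrase 3, were 84.8-fold and 21.9-fold higher. The probe of Fabp4, a defining adipocyte gene, measured 8.26, 5.89 and 6.35 in peritoneal mesothelium, with 2 arrays detected, and was detected on no bladder array. Acsl1, an enzyme that activates fatty acids, measured 9.24, 10.84 and 11.94 against 7.62, 7.52 and 6.84, and its call was lost without peritoneal replicate 3 and with only the 6 arrays fitted. The mean of the list was 10.35 to 10.92 on the peritoneal arrays and 7.60 to 7.70 on the bladder arrays. It was 11.10 to 11.63 in fat, but also 9.93 to 10.34 in heart, 9.87 to 10.09 in skeletal muscle and 9.20 to 9.36 in liver. Lung was as low as bladder, at 7.58 to 7.75, so a high mean of this list is not particular to fat.

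All 10 detected macrophage probes were higher in peritoneal mesothelium, 2 of them named by the tables, and the median over the 17 probes of the list was 2.65. C1qa, a complement subunit of tissue macrophages, measured 11.67, 11.16 and 11.52 against 9.12, 8.93 and 8.55 (adjusted p = 9.6e-09). Csf1r, the receptor that macrophages need to survive, was higher by 2.68 ± 0.24, and Trem2, a lipid receptor, exceeded its bladder level at least 10.8-fold. The mast cell protease genes Cma1 and Mcpt4 were at least 7.40-fold and 3.23-fold higher, and no bladder array detected them. The macrophage probes for Ptprc, Msr1 and Cybb were detected on no array of either tissue, and that for Itgam on 1 peritoneal array. Of 6 lymphocyte probes, 2 were detected and 1 was higher in peritoneal mesothelium, and of 7 skeletal muscle probes 1 was detected and was not called. The part of adipocytes and macrophages in the other differences was not tested.

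**Figure D4:**
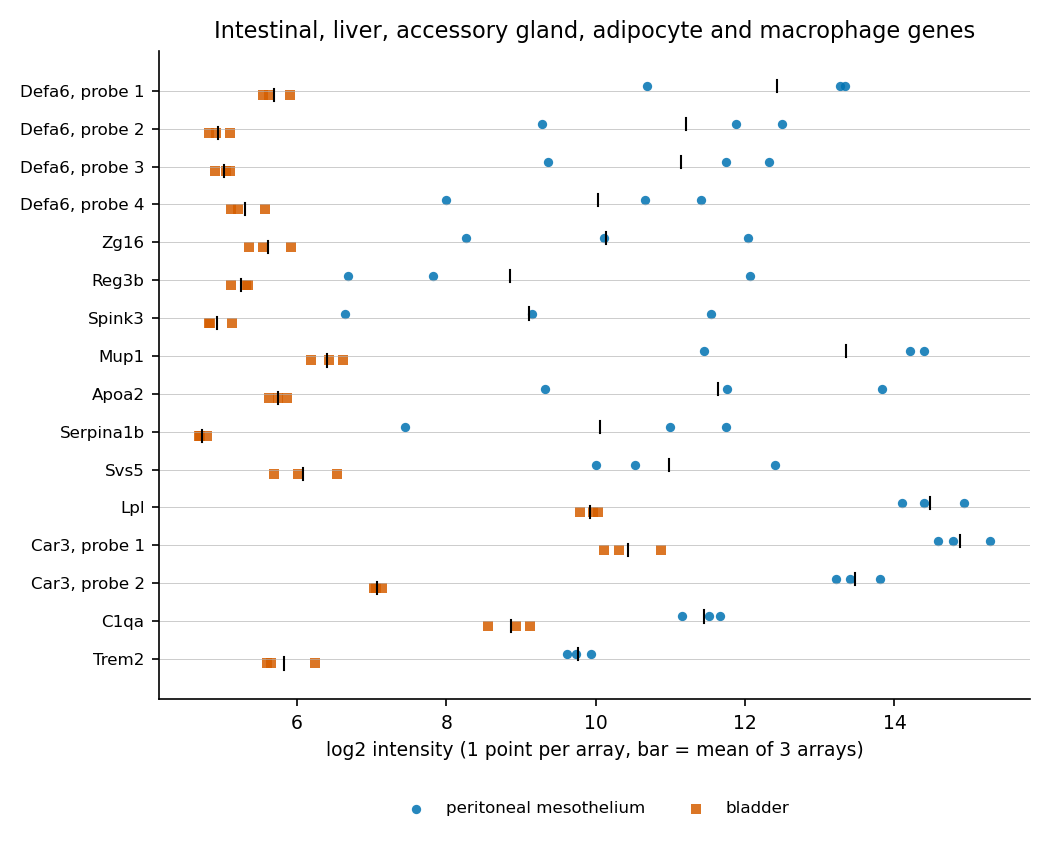
Log2 intensity on each array (1 point per array, bar at the mean of 3) for intestinal (Defa6 to Reg3b), pancreatic or accessory gland (Spink3), liver (Mup1 to Serpina1b), seminal vesicle (Svs5), adipocyte (Lpl, Car3) and macrophage (C1qa, Trem2) genes in peritoneal mesothelium (blue circles) and bladder (orange squares). The peritoneal arrays of Reg3b run from 6.69 to 12.07, while those of C1qa stay between 11.16 and 11.67.

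Endothelial genes had no common direction between the 2 tissues. Of 7 endothelial probes, 6 were detected, 1 of these was higher in peritoneal mesothelium, 1 was higher in bladder and 3 were shared. The median log2 difference over the 7 was 0.13. Over all detected probes 40.6% were shared, so a count from so few probes shows no likeness particular to this list. Eng (endoglin), Egfl7 and Robo4, which act in the vessel wall, differed by 0.13 ± 0.24, 0.27 ± 0.24 and -0.45 ± 0.20 and were shared. Pecam1 had a difference of 0.19 ± 0.63, too uncertain to place within 2-fold. Emcn, a sialomucin of capillaries and veins, was higher in bladder by 1.03 log2 units, a call that was lost without bladder replicate 3 or peritoneal replicate 2. Selp, described above, was the gene on the peritoneal side.

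Among the shared probes, 24 also lay above each of fat, heart, liver, lung and skeletal muscle in both tissues, by at least 2-fold and with a B statistic above 0. Since these values chose them, they are described without a test. The 24 probes include 10 with a name, for 9 genes. They cover cell guidance (Efna5, Ephb2), matrix (Fbln1), the epithelial keratin Krt19, body position (Hoxd4), and signalling or membrane traffic (Pak3, Ppp2r2b, Gdpd5, Dnajc6).

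Efna5, an ephrin ligand that guides cells by contact, measured 11.60, 11.43 and 11.49 in peritoneal mesothelium and 11.28, 11.11 and 11.49 in bladder, an interval of -0.09 to 0.52 log2 units. The next tissue was pleural and pericardial mesothelium at 10.13, followed by heart at 9.93 and fat at 9.72. Ephb2, an ephrin receptor, was dim in both tissues, with means of 6.71 and 6.88, and had a mean of 5.75 in pleural and pericardial mesothelium. Both Fbln1 probes, for a fibulin of elastic and basement membrane matrix, were shared. The brighter measured 12.01, 12.97 and 12.62 against 12.41, 12.25 and 12.02, and was also high in pleural and pericardial mesothelium, at 12.09. The dimmer had the widest margin of all 24 probes, its smallest difference from the 5 tissues being 2.30.

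Krt19 was near equal in the 2 tissues, as described above, and far lower in fat, liver and skeletal muscle, with means of 4.72, 4.72 and 4.71. Lung came nearest, at 8.54. Hoxd4 measured 8.42, 8.14 and 8.07 in peritoneal mesothelium and 8.47, 8.60 and 8.70 in bladder, so the bladder arrays were all higher, by 0.38 on average. It was lower in fat, at 7.10, and in pleural and pericardial mesothelium, at 5.99, while heart, liver, lung and skeletal muscle lay between 4.96 and 5.28. Dnajc6 (auxilin), which strips clathrin from vesicles, differed in this respect, since its level of 8.49 in pleural and pericardial mesothelium matched the 8.47 of peritoneal mesothelium and the 8.72 of bladder.

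The remaining genes were near equal between peritoneal mesothelium and bladder. Gdpd5, a membrane phosphodiesterase, had means of 10.20 and 10.13, Ppp2r2b, a regulatory subunit of protein phosphatase 2A, of 8.14 and 8.14, and Pak3, a kinase downstream of small GTPases, of 7.42 and 7.43. Among the probes just inside the 2-fold limit of this set, Hoxd4 had a smallest margin of 1.11 over the 5 tissues. Upk3b on its brightest probe exceeded the 5 tissues by at least 1.62 in both tissues, but it was called higher in peritoneal mesothelium and therefore not shared.

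**Figure D5:**
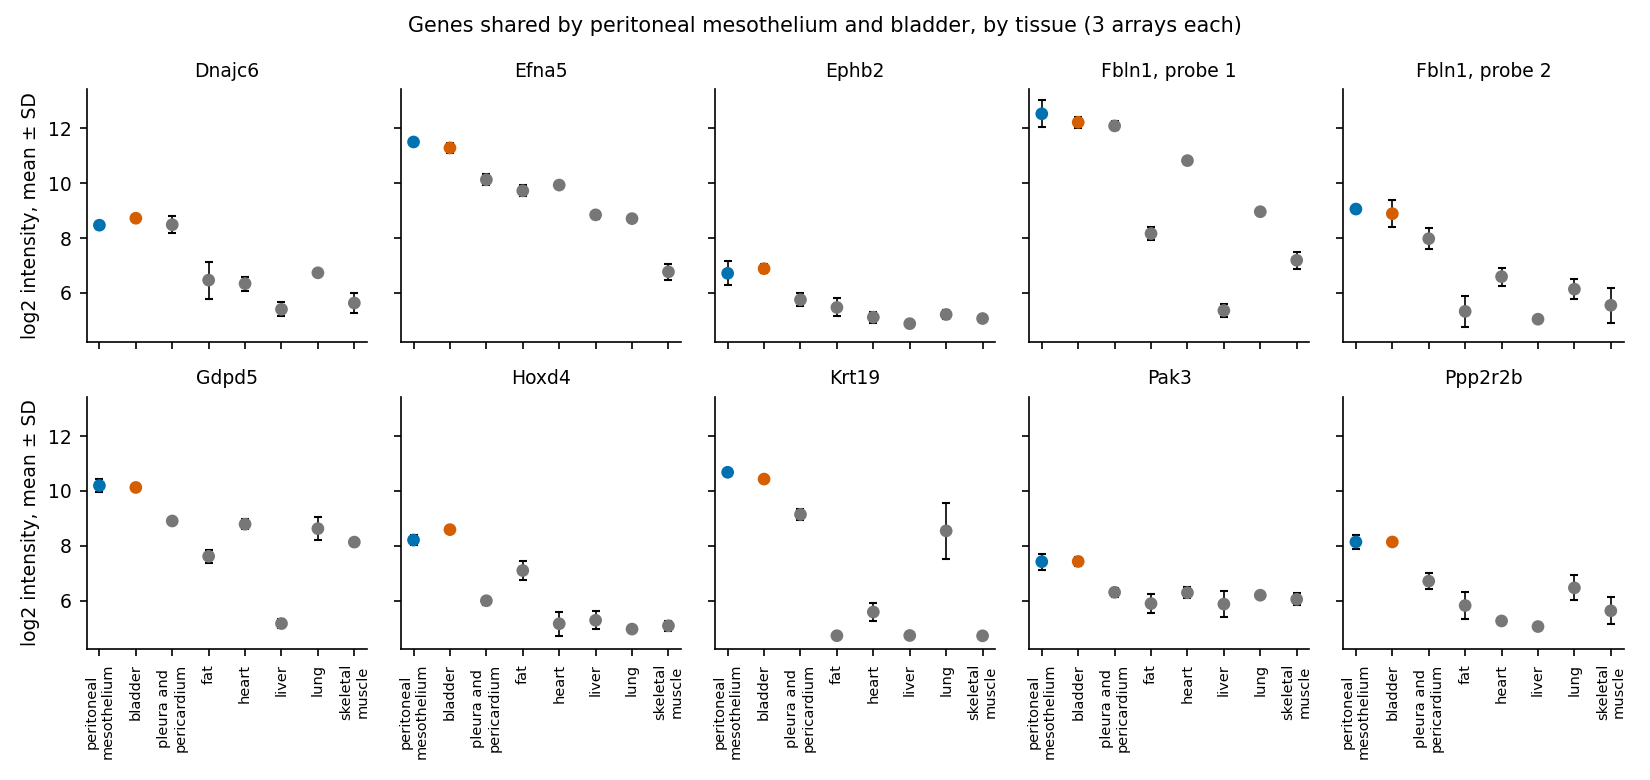
Mean log2 intensity ± SD of 3 arrays in each of 8 tissues for the 10 named probes that were shared by peritoneal mesothelium (blue) and bladder (orange) and higher there than in fat, heart, liver, lung and skeletal muscle (grey, as is pleura and pericardium). Each panel is 1 probe, and levels compare between tissues within a panel only. Krt19 has means of 10.68 and 10.43 in the first 2 tissues and 8.54 in lung.

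Across tissues, bladder was not the nearest neighbour of peritoneal mesothelium. Pearson's r between tissue means over the 12612 probes, which were chosen for detection in these 2 tissues, was 0.926 for pleural and pericardial mesothelium, 0.882 for fat, 0.826 for lung, 0.786 for heart, 0.756 for bladder, 0.688 for liver and 0.687 for skeletal muscle. All of these values share the peritoneal arrays. Genes are not independent replicates, so the order is a description.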

How the data were processed

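The authors deposited, for each of 24 Illumina mouse arrays, an intensity per probe that had been background-subtracted and not normalized (36.0% of values were at or below 0), with a detection p-value column that holds a score rising to 1, and a second table of quantile-normalized intensity. The authors summarized the scans in BeadStudio. From the unnormalized intensity, the background was modelled with 1616 negative controls implied by the detection scores (normexp, offset 16), the 24 arrays were quantile normalized and log2 transformed, and 1 mean per tissue was fitted with limma 3.58.1 in R 4.3.3 with the spread shared over all 24 arrays (assumed share of changed probes 0.01). Adjusted p is Benjamini-Hochberg over all 46120 probes. The number of arrays limits the precision. Where no array of a tissue detected a probe, each array was set at the higher of its lowest detected signal and the probe's own value. Log2 levels compare tissues within a probe, never probes with each other. Gene IDs were named through the RefSeq gene table. Text genes were the 12 widest named differences each way by fitted value, the study's 10 in situ candidates and Wt1, the shared probes above 5 tissues, and members of the gene lists, all counted in full. The members and lists were chosen with earlier results of these data known. The scripts were tested on simulated data. Alternatives changed the background step, scaling, detection limit, arrays fitted, interval and fold limit, and left out each array. Repeat measurements of 1 gene by several probes were kept apart. The authors' lists of fold changes were used for gene names only. Some results are not reported here.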

Additional observations from a re-analysis of the deposited data

How the results depend on the processing

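The counts moved by over 1.5 times under 3 alternatives. The main background model left out only 10 probes, whose detection scores lay off the steps that the negative controls imply. With these put back, so that every probe was used, 726 probes were higher in peritoneal mesothelium and 684 in bladder. In that fit 13 were shared and above the 5 other tissues, and 108 list probes were called in place of 172. A 1.5-fold limit left 1623 shared probes and 7 above the 5 tissues, and without the detection filter 36464 probes lay within the limits. Under the remaining alternatives the counts stayed within 1.5 times. Leaving out 1 array at a time gave 1229 to 1303 probes higher in peritoneal mesothelium, 1148 to 1200 higher in bladder, 4493 to 4724 shared and 17 to 22 above the 5 tissues, with 163 to 169 list probes called, and 1114 and 1036 of the original calls in either direction were kept without any 1 of the 6 arrays. The replicate numbers did not pair the arrays (correlations of same-numbered deviations 0.068, -0.129 and 0.094), and a fit with the replicate number as a block called 1459 and 1316 probes, with 5354 shared, 23 above the 5 tissues and, among the genes of the text, only Reg3b no longer called. Median scaling gave 1637 and 1124, a split of 59.3% higher in peritoneal mesothelium against 52.7%. Of 192 called probes of the genes in the text, none reversed under any alternative. With only the 6 arrays fitted 34 were no longer called and with only these normalized and fitted 35, among them Reg3b, Zg16, Spink3, Apoa2 and Serpina1b. With every probe in the background model 70 were no longer called. On the peritoneal side these included Nkx2-3, the Upk3b probe not detected in bladder, the weaker Cldn15 probe, Cdh3, Hlx, Stra6 and Fgf18. On the bladder side they included Cacna1c, Chrm2, Kcnma1, Kcnmb1, Marveld3, Dsg2, Erbb2, Pitx1 and Hoxa9. The probes above the 5 tissues were not recomputed from the 6 arrays alone, which leave those tissues out. Below the detection limit, near a log2 level of 6.08 to 6.38 on these arrays, differences were bounds only. These bounds hold for the main background model. With every probe in the background model, the fitted difference was 0.41 log2 units for Nkx2-3 and 0.68 for the Upk3b probe not detected in bladder. For Kcnmb1 it was -0.46 and for Chrm2 -0.43.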

Other observations

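Most probes for proliferation genes did not pass the detection limit in either tissue. Of 23 probes for 14 cell cycle genes, 7 were detected and 3 of these were shared, close to the 40.6% of all detected probes. Among them were Mki67, with 6.77, 6.38 and 7.02 in peritoneal mesothelium and 6.91, 6.98 and 7.10 in bladder, Pcna and Mcm7. Anln (anillin), an actin-binding protein of the cleavage furrow, stood apart with 9.51, 10.22 and 9.93 against 7.78, 7.56 and 8.01, and the study's tables had named it. Of 15 probes for 11 genes that respond to tissue handling or stress, 7 were detected, 2 of these were higher in peritoneal mesothelium and 5 were not called. Over all detected probes 11.2% were higher in peritoneal mesothelium, and so few probes do not set this list apart. Klf2, a transcription factor, was higher in peritoneal mesothelium by 2.17 ± 0.33 log2 units (adjusted p = 5.01e-05) and Nfkbiz, named by the tables, by 1.89 ± 0.31, a call that was lost with only the 6 arrays fitted, whereas Junb had a difference of -1.23 ± 0.29 and was not called. Fosb and Egr2 were detected on 2 peritoneal arrays and no bladder array, and Egr3, Nr4a1 and Myc on no array of either tissue.

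Wide differences in both directions lay at probes without a gene name. A probe of this kind measured 14.44, 14.27 and 14.13 in bladder and was detected on no peritoneal array, at least 272.4-fold higher in bladder. In the other direction, a probe with 15.23, 14.55 and 15.50 in peritoneal mesothelium and 8.32, 8.03 and 7.76 in bladder differed by 7.06 ± 0.31 log2 units. The latter probe was also bright in fat, at 15.41, in skeletal muscle, at 14.98, and in liver, at 13.85.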
